A study of Cavia porcellus with 34 samples.

Results

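The genes described are 47 receptors for neuropeptides and peptide hormones, listed by name and matched to the gene symbols of a set of RNA-seq tables from the paraventricular nucleus (PVN) of the guinea pig hypothalamus. No expression value was used to choose them, but earlier results of these data were known when the list was made. Of the 12592 genes that had a row in any of the tables, 40 were members of the list. In F1 39 of them had a row, and in F2 and F3 all 40. After a filter that kept genes with a mean of at least 10, 38 members were tested in F1, 40 in F2 and 39 in F3. CRHR1, SSTR2, SSTR4, GALR2, NTSR2, GHRHR and NPR3 were not analysed here, nor was MC3R in F1. VIPR1, a receptor for vasoactive intestinal peptide, was under the filter in F1, where its values ran from 1.9 to 6.95 (median 4.16) in vehicle animals and from 1.91 to 7.47 (median 5.51) in treated ones, and in F3, where they ran from 6.98 to 11 (median 9.02) and from 5.95 to 14 (median 11.5).

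Neuropeptides are released by hypothalamic neurons and act on receptors that lie, with few exceptions, in the membrane of the target cell and signal through G proteins. The PVN both sends out peptides, among them corticotropin-releasing hormone (CRH), vasopressin, oxytocin and thyrotropin-releasing hormone (TRH), and is itself reached by peptides, through receptors for neuropeptide Y, melanocortins, galanin, opioids, angiotensin and others. Receptors that couple to Gs raise cyclic AMP, those that couple to Gi lower it, and those that couple to Gq raise calcium, while the leptin receptor is a cytokine receptor and the natriuretic peptide receptors NPR1 and NPR2 are guanylyl cyclases.

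Pregnant Dunkin-Hartley guinea pigs (F0) were injected with 3 courses of the synthetic glucocorticoid betamethasone (sGC, 1 mg/kg) or with saline (Veh). Female offspring of F1, and females of F2 and F3 descended through males that were mated with untreated females, were sampled on postnatal day (PND) 40. F1 females were therefore themselves exposed in utero, and F2 and F3 females descended from exposed F1 males, with no injection after F0. PVN RNA was sequenced in 5 Veh and 5 sGC animals of F1, 5 of either kind of F2, and 6 of either kind of F3, each generation with its own Veh group. The PVN was taken as a micropunch, so tissue beside the nucleus may be included. In such bulk tissue, fewer cells that express a receptor and less receptor mRNA per cell cannot be told apart.

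The values are normalized counts per gene that the authors corrected and rounded, and they were divided here by a median-of-ratios size factor per animal, which gives the scaled normalized count used throughout. They are not adjusted for gene length, so they do not rank one receptor against another. The 3 tables were normalized separately, so levels in F1, F2 and F3 are set side by side only as values. Per animal, F1 values summed to 15.57 to 21.94 M, F2 values to 15.65 to 19.44 M and F3 values to 18.69 to 18.98 M. Because the values are not raw reads, no counting interval is given. Fold changes are differences of mean log2(scaled normalized count + 1), sGC minus Veh, given with their standard error (SE) and tested with limma across all genes of a table, and "called" means a Benjamini-Hochberg adjusted p under 0.05. Means are given with the SD.

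Some animals stood apart. In F1 the normalization had left 1 direction among the 10 animals with almost no variation, and 78.9% of it belonged to Veh animal SGM11. Over the 38 members tested, SGM11 was the lowest Veh animal for 0 and the highest for 0, whereas SGM15 was the lowest for 17 and SGM7 the highest for 18. SGM11 thus added little spread of its own while counting as an animal in the test, so F1 p-values with it are too small, and the F1 calls are given with and without it. F2 had 1 such direction and F3 had 2, shared among more animals. The largest shares were 27.1% (F2 Veh animal SGM27) and 15.1% (F3 sGC animal SGM6). The p-values of F2, of F3 and between generations can therefore be too small as well, by an amount that was not tested. In F1 sGC, 3 animals (SGM4, SGM8 and SGM20) had summed PVN marker levels of 26090, 34390 and 55740, under every Veh animal (115200 to 230300), and SGM12 and SGM16 had 144300 and 178000. On average AVP and OXT, which are also ligand genes, made up most of this sum. The PVN identity genes differed less between the groups than AVP and OXT. SIM1 was 1352 ± 90.5 in Veh and 1053 ± 303 in sGC, and OTP 2414 ± 228 and 1640 ± 797. In F1 Veh, SGM15 had a summed level of 8130 for markers of neighbouring regions, with the other animals of F1 at 3183 to 3972. TCF7L2 had the highest mean and SD of these markers in F1 Veh (1983 ± 2436). In F2, sGC animal SGM21 was the highest of its group for 19 of 40 members. Veh animals SGM28 and SGM23 of F2 had summed levels of 6131 and 5489 for markers of neighbouring regions. The other F2 Veh animals had 2145 to 2921 and the F2 sGC animals 2844 to 4802. SGM23 also had the highest summed oligodendrocyte marker level (242200, with the other F2 Veh animals at 129600 to 145000). In F3 sGC, SGM21-batch2 was the lowest for 16 of 39 members and the highest for 9, SGM10 the lowest for 14 and the highest for 14, and SGM6 the lowest for 0 and the highest for 0. The sGC animals SGM21-batch2 and SGM22-batch2 came from a second sequencing batch that held no Veh animal among those tested. The PVN identity genes SIM1 and OTP were present in every generation.

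**Figure D1:**
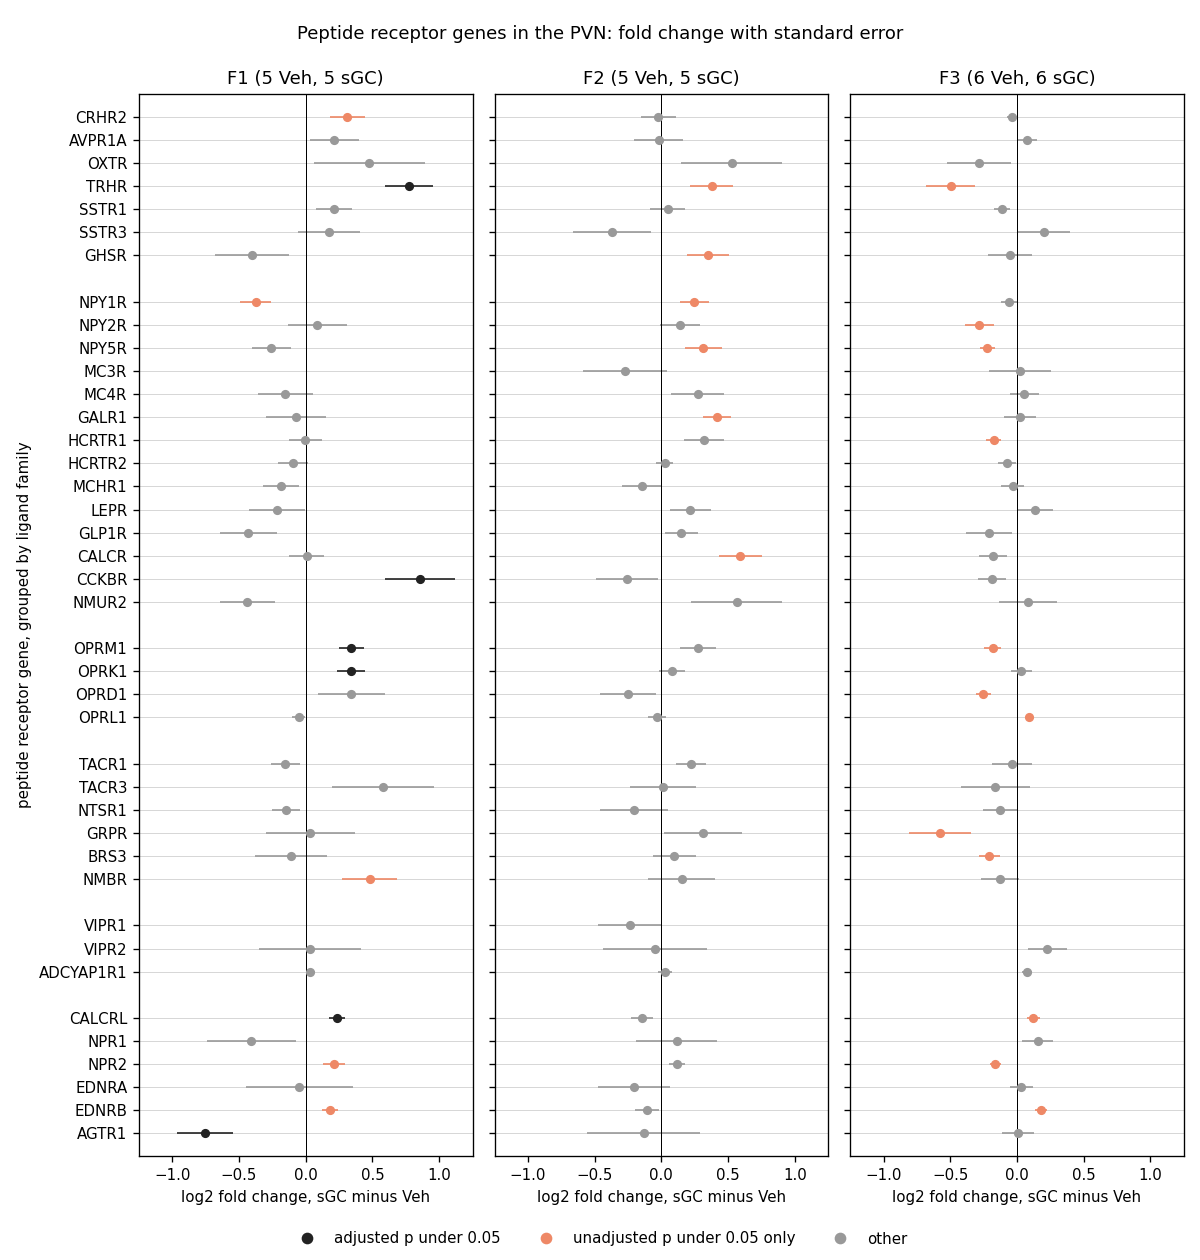
The log2 fold change of sGC against Veh (horizontal axis) for each peptide receptor gene tested, grouped by the ligands' family, in F1, F2 and F3, with bars of 1 SE. The 6 members called in F1 are black, and F2 and F3 hold none.

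In F1, whose mothers received the injections, the question was which peptide receptors differed between sGC and Veh animals. Of 38 members tested, 6 were called: TRHR, CALCRL, OPRM1, OPRK1 and CCKBR were higher and AGTR1 was lower in sGC. That is 15.8% of the members, against 17.3% of all genes tested (8.48% called higher and 8.86% called lower), a share close to that of all genes. At an unadjusted p under 0.05 there were 9 members higher and 2 lower, 28.9% against 33.0% of all genes. Veh and sGC animals did not overlap for TRHR, CALCRL and AGTR1, 7.89% of members against 14.2% of all genes. The members split into 20 above and 18 below no change, with 50.7% of all genes above. Their median log2 fold change was 0.019 against 0.0032 for all genes, and with 1 animal left out its distance from that of all genes ran from -0.060 (without SGM19) to 0.072 (without SGM7). The median absolute fold change was 0.213 in members against 0.128 in all genes. These 2 medians were not matched for level, and low members such as GRPR (SE 0.33) were less precise than high ones such as ADCYAP1R1 (SE 0.0356).

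Among receptors for the peptides that the PVN sends to the pituitary, TRHR, the Gq-coupled receptor for TRH, changed. Its scaled normalized counts were 289.7, 357, 374, 386 and 413 in the Veh animals and 435, 491, 634, 770.0 and 866 in the sGC animals. Every sGC animal lay above every Veh animal, and SGM20, SGM8 and SGM4 were the 3 highest. The means were 364 ± 46.3 in Veh and 639 ± 182 in sGC, which as a log2 fold change was 0.77 ± 0.18 (limma adjusted p = 0.0168, n = 5 and 5).

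CRHR2, the receptor for urocortins and CRH that couples to Gs, gave 650.4, 772, 849, 935 and 1030 in Veh and 869, 916, 1033, 1152 and 1280 in sGC. The groups overlapped, and its log2 fold change, 0.31 ± 0.13, was not called (limma adjusted p = 0.131). OXTR, the oxytocin receptor, varied more within groups than between them, with 19.7, 56.8, 64.8, 70.3 and 95.7 in Veh and 42.1, 57.1, 78.4, 115 and 122 in sGC (0.48 ± 0.41, limma adjusted p = 0.454). AVPR1A, the vasopressin V1a receptor, gave 85.7, 146, 159, 168 and 174 in Veh and 133, 153, 180.0, 182 and 184 in sGC (0.21 ± 0.19, limma adjusted p = 0.455). For both genes the lowest value belonged to Veh animal SGM15, and without it the fold change was 0.12 for OXTR and 0.034 for AVPR1A. The somatostatin receptors SSTR1 (0.21 ± 0.13) and SSTR3 (0.18 ± 0.23), which couple to Gi, and the ghrelin receptor GHSR (-0.40 ± 0.27) were not called, and the 2 lowest GHSR values were those of SGM4 (154) and SGM8 (226).

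Of the 13 receptors for feeding and energy peptides, 3 had a positive and 10 a negative fold change, and CCKBR was the 1 called. CCKBR, the receptor for cholecystokinin and gastrin that couples to Gq, was low in all animals, at 20.9, 24.3, 32, 39.9 and 50.7 in Veh and 42.9, 50.7, 53.6, 67.2 and 87.7 in sGC. The groups overlapped in the range of 42.9 to 50.7, and the means of 33.6 ± 12 in Veh and 60.4 ± 17.6 in sGC gave 0.85 ± 0.26 as the log2 fold change (limma adjusted p = 0.0466).

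NPY1R, the Gi-coupled Y1 receptor for neuropeptide Y, missed the threshold narrowly, with 530.1, 596, 635, 658 and 811 in Veh and 423, 431, 533, 537 and 558 in sGC (-0.38 ± 0.12, limma adjusted p = 0.0506). Its 2 lowest animals were sGC animals SGM8 and SGM4. MC4R, the melanocortin receptor through which satiety signals reach the PVN, gave 99.6, 157, 161, 169 and 252 in Veh and 117, 129, 156, 162 and 166 in sGC, so all sGC animals lay within the Veh range (-0.15 ± 0.21, limma adjusted p = 0.654). NPY5R (-0.26 ± 0.14), GLP1R, the receptor for glucagon-like peptide 1 (-0.43 ± 0.21), NMUR2, the neuromedin U receptor (-0.44 ± 0.20), LEPR, the leptin receptor (-0.21 ± 0.21), and MCHR1, the receptor for melanin-concentrating hormone (-0.18 ± 0.14), were also negative and not called. NPY2R (0.087 ± 0.22), the orexin receptors HCRTR1 (-0.0038 ± 0.12) and HCRTR2 (-0.094 ± 0.11), and CALCR, the calcitonin and amylin receptor (0.006 ± 0.13), lay near no change.

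GALR1, the Gi-coupled galanin receptor, had almost equal group means, 1788 ± 172 in Veh and 1810 ± 737 in sGC, but not equal spread. The Veh animals had 1640, 1675, 1732, 1826 and 2068, and the sGC animals had 1154, 1322, 1360, 2491 and 2724. The 3 lower values were those of SGM4, SGM20 and SGM8 and lay below all Veh animals, and SGM12 and SGM16 lay above all Veh animals (-0.07 ± 0.23, limma adjusted p = 0.861). These are the same animals that had the low and the high summed PVN marker levels.

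Of the 4 opioid receptors, which couple to Gi, 2 were called higher. OPRM1, the mu receptor for endorphins and enkephalins, gave 556, 612, 616, 648 and 679 in Veh and 644, 742, 798, 877 and 904 in sGC, so that 4 of the 5 sGC animals lay above all Veh animals and SGM4 did not (0.34 ± 0.0922, limma adjusted p = 0.0289). OPRK1, the kappa receptor for dynorphins, gave 466, 507, 516, 525 and 563 in Veh and 552, 599.9, 632, 658 and 853 in sGC (0.34 ± 0.10, limma adjusted p = 0.0458). Here SGM4 was the highest animal and SGM8 the sGC animal within the Veh range. OPRD1, the delta receptor for enkephalins (0.34 ± 0.25), and OPRL1, the nociceptin receptor (-0.053 ± 0.0473), were not called.

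None of the 6 receptors for tachykinins, neurotensin and bombesin-like peptides was called. The largest fold changes belonged to TACR3, the neurokinin B receptor (0.58 ± 0.39, Veh 211 to 1277 (median 542)), and to NMBR, the neuromedin B receptor (0.48 ± 0.21, unadjusted p = 0.0401). TACR1, the substance P receptor (-0.15 ± 0.11), NTSR1, a neurotensin receptor (-0.15 ± 0.10), GRPR, the receptor for gastrin-releasing peptide (0.035 ± 0.33), and BRS3, an orphan member of the bombesin family (-0.11 ± 0.27), had smaller ones. ADCYAP1R1, the receptor for PACAP, was the least variable member in F1 (coefficient of variation 2.63% in Veh and 3.49% in sGC) and differed by 0.034 ± 0.0356. VIPR2 differed by 0.032 ± 0.39.

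The receptors for vascular and natriuretic peptides held the 1 member called lower. AGTR1, the angiotensin II receptor that couples to Gq, gave 118, 131, 157, 190.0 and 228 in Veh and 61.6, 92.9, 107, 108 and 113 in sGC. Every sGC animal lay below every Veh animal, and the means of 165 ± 44.8 in Veh and 96.6 ± 21 in sGC gave -0.76 ± 0.21 as the log2 fold change (limma adjusted p = 0.033). CALCRL, which with RAMP proteins forms the receptors for calcitonin gene-related peptide and adrenomedullin, gave 1715, 1743, 1802, 1859 and 1885 in Veh and 1930, 1961, 2103, 2275 and 2334 in sGC.

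For CALCRL again no sGC animal overlapped with Veh, but the change was smaller, 0.23 ± 0.0581 (limma adjusted p = 0.0216), and the 2 highest animals, SGM4 and SGM8, also had the highest summed endothelial marker levels (16420 and 15070, against 9307 to 10350 in Veh). EDNRB, the endothelin B receptor (0.18 ± 0.0599, limma adjusted p = 0.0585), and NPR2, the receptor for C-type natriuretic peptide (0.21 ± 0.0818, limma adjusted p = 0.0969), were positive and missed the threshold. NPR1 (-0.41 ± 0.34) and EDNRA (-0.048 ± 0.40) were not called, and for EDNRA 1 sGC animal, SGM4, had 398 while the other sGC animals ran from 58.4 to 157.

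**Figure D2:**
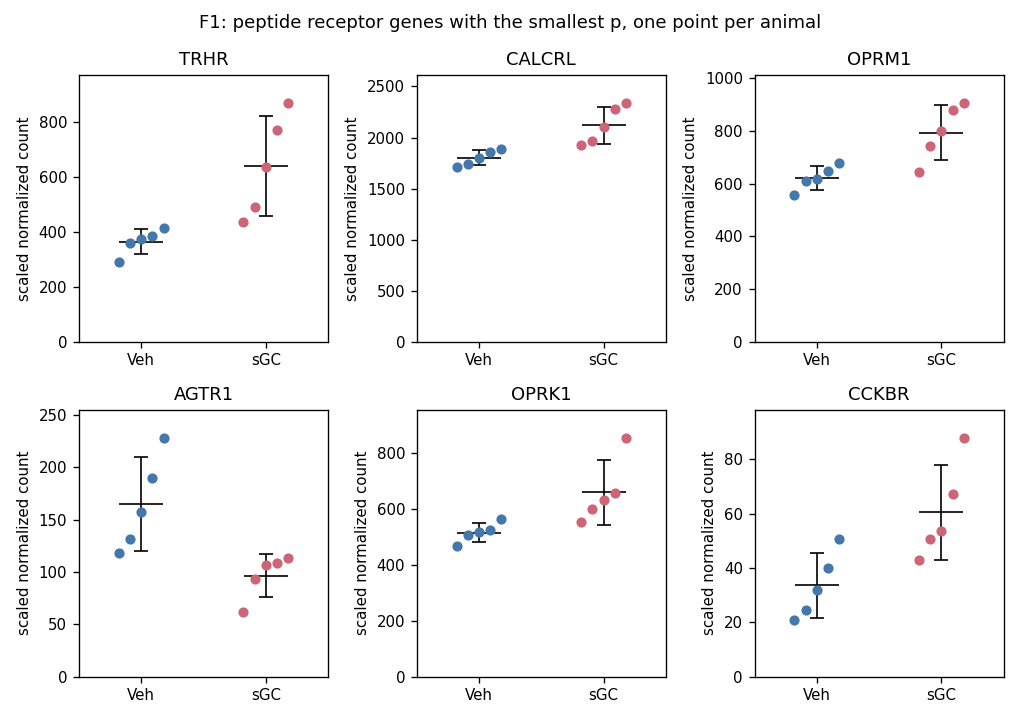
Scaled normalized counts (vertical axes, from 0) of the 6 members with the smallest p in F1, 1 point per animal, with the mean and SD of 5 Veh and 5 sGC animals. TRHR and CALCRL have all sGC animals above all Veh animals, and AGTR1 all below.

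The F1 calls depended on single animals and on the scaling. With each of 10 animals left out in turn, CCKBR and OPRK1 lost the call in 8 settings. OPRM1 lost it in 6, AGTR1 in 4, CALCRL in 2 and TRHR in 0. TRHR was the 1 member still called without SGM11 (904 genes called in all), without SGM7, and on the deposited scale, where 78 genes were called, 72 of them higher and 6 lower, against 1006 higher and 1052 lower with scaling. Without SGM11 the adjusted p of the other called members was 0.0577 for CALCRL, 0.0716 for OPRM1, 0.0744 for AGTR1, 0.0971 for OPRK1 and 0.0992 for CCKBR (limma), and over all animals left out in turn TRHR ranged from 0.00955 to 0.0458.

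The ligands of these receptors and the proteins that carry their signals were listed as well. Of 27 ligand genes tested in F1, 0 were called higher and 1 lower, at an unadjusted p under 0.05 2 were higher and 5 lower, and the called gene was TRH itself (3167 ± 174 in Veh and 1776 ± 1012 in sGC, -1.0 ± 0.29, limma adjusted p = 0.0398). OXT (-1.61 ± 0.57, adjusted p = 0.0737 by limma), AVP (-1.53 ± 0.57, adjusted p = 0.0868) and CRH (-1.23 ± 0.46, adjusted p = 0.0881) had larger negative fold changes and missed the threshold, with widely spread sGC animals. Without SGM11 the adjusted p of TRH was 0.0864 (limma), and 0 ligand genes were called. TRH and its receptor thus had opposite signs in F1.

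Of 29 genes for G proteins and effectors, 4 were called higher and 3 lower, 24.1% of the list. For the 18 receptor partners the called share was 22.2% and for the 10 peptidases 20%, against the 17.3% of all genes given above, and nothing particular to these lists is read from it. GNAQ, the alpha subunit of Gq through which TRHR, AGTR1 and CCKBR signal, rose from 816 ± 62.3 in Veh to 1141 ± 60.6 in sGC (0.48 ± 0.0605, limma adjusted p = 0.00132), and its groups did not overlap. CREB1, the transcription factor activated by cyclic AMP signals, rose as well (0.38 ± 0.0652, limma adjusted p = 0.00475), and GNAI1, an alpha subunit of Gi, fell (-0.24 ± 0.0497, limma adjusted p = 0.0109). Of 18 receptor partners, 1 was called higher, the receptor kinase GRK5 (0.32 ± 0.0687, limma adjusted p = 0.0125), and 3 lower. Those 3 were GPRASP1, RGS2 and RAMP3, a partner of CALCRL (-0.26 ± 0.0716, limma adjusted p = 0.0316). RAMP1 (-0.22 ± 0.0844, limma adjusted p = 0.0962) and RAMP2 (-0.069 ± 0.15, limma adjusted p = 0.789) were not called, so CALCRL and RAMP3 had opposite signs. Of 10 peptidases, 1 was called higher, LNPEP, which cleaves oxytocin, vasopressin and angiotensin (0.23 ± 0.0474, limma adjusted p = 0.00929), and 1 lower. PRKAR1A, a regulatory subunit of protein kinase A, fell too (-0.15 ± 0.0371, limma adjusted p = 0.0195). Without SGM11, when 7.61% of all genes were called, 3 effectors (GNAQ, CREB1 and GNAI1, adjusted p = 0.00788, 0.0194 and 0.0355), 1 partner (GRK5, 0.0372) and 1 peptidase (LNPEP, 0.0315) were still called. PRKAR1A (0.0596) and RAMP3 (0.0763) were then not called by limma.

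Several marker lists leaned in 1 direction in F1, to an extent that differed between the sGC animals. For the counts below, 33.0% of all genes had an unadjusted p under 0.05 by limma. All 8 PVN markers had a negative fold change, 7 of them with an unadjusted p under 0.05 and TRH called, and their summed level was 115200 to 230300 in Veh and 26090 to 178000 in sGC. All 7 endothelial markers were positive, 4 with an unadjusted p under 0.05 (sums of 9307 to 10350 in Veh and 9204 to 16420 in sGC), as were both mural markers tested (2720 to 3151 and 2844 to 11270). All 7 oligodendrocyte markers were positive too, none with an unadjusted p under 0.05 (30070 to 53270 and 33830 to 92210). No endothelial, mural or oligodendrocyte marker was called, and the highest sums of these lists were those of SGM4 and SGM8. The other sGC animals had endothelial sums of 9204 to 10940 and mural sums of 2844 to 4530. Their oligodendrocyte sums, 33830 to 52270, lay within the Veh range. None of these 4 lists, with the PVN markers, had a defining marker at 0.

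Of 10 markers of neighbouring regions tested in F1, 8 were positive and 2 negative, 4 and 2 of them with an unadjusted p under 0.05 (sums of 3183 to 8130 in Veh and 3227 to 3868 in sGC). LHX1, a transcription factor of hypothalamic regions outside the PVN, was called (301 ± 108 in Veh and 567 ± 96.3 in sGC, 0.98 ± 0.24, limma adjusted p = 0.021) and its groups did not overlap. Of 7 neuron markers, the microtubule protein MAP2 was called higher (0.42 ± 0.0663, limma adjusted p = 0.00313) and STMN2, a protein of growing neurites, lower (-0.21 ± 0.0519, limma adjusted p = 0.0197), both without overlap. Of 6 microglial markers, 4 were positive and 2 negative, and only CX3CR1 was called, higher in sGC (0.25 ± 0.077, limma adjusted p = 0.0496). Without SGM11, MAP2 (adjusted p = 0.0138) and LHX1 (0.0493) were still called by limma, and STMN2 (0.0538) and CX3CR1 (0.107) were not. The part of the marker differences in the receptor values was not tested.

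In F2, the granddaughters of the injected animals through their sons, the same comparison was made. No member was called among 40 tested, and 0% of all genes were called, while 12.8% of all genes had an unadjusted p under 0.05. At that unadjusted level 6 members were higher in sGC (GALR1, CALCR, TRHR, NPY5R, NPY1R and GHSR), 15% of the members against 6.81% of all genes, and 0 members were lower, against 6.01% of all genes. The groups overlapped for every member, where 3.21% of all genes had none. Positive fold changes were found for 25 members and negative ones for 15, with 49.2% of all genes positive, and the median was 0.0875 against -0.0020 for all genes. That distance of 0.0896 fell to 0.021 without Veh animal SGM23. Of the 14 feeding receptors, 11 were positive and 3 negative, with a median of 0.233.

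GALR1 had the smallest p. Its values were 1028, 1064, 1082, 1253 and 1289 in Veh and 1263, 1399, 1484, 1721 and 1795 in sGC. The ranges overlapped by 1 animal on either side, and the means of 1143 ± 119 in Veh and 1532 ± 222 in sGC gave 0.42 ± 0.10 as the log2 fold change (limma unadjusted p = 0.00182, adjusted p = 0.147). CALCR gave 908, 1036, 1143, 1175 and 1405 in Veh and 1194, 1487, 1789, 1988 and 2182 in sGC, with 4 of the 5 sGC animals above all Veh animals (0.59 ± 0.16, limma adjusted p = 0.17).

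Both Y receptors that had a negative fold change in F1 had a positive one in F2. NPY1R gave 383, 395, 425, 485 and 512 in Veh and 438, 481, 505, 582 and 611 in sGC (0.25 ± 0.11, limma adjusted p = 0.377), and NPY5R gave 209, 256, 260.4, 262 and 271 and 248, 286, 289.6, 328 and 437 (0.31 ± 0.14, limma adjusted p = 0.375). For NPY5R the Veh animal SGM23 lay below the other Veh animals and the sGC animal SGM26 above all others. GHSR gave 249, 256, 268, 288 and 297 in Veh and 258, 296, 339, 364 and 523 in sGC (0.35 ± 0.16, limma adjusted p = 0.389). Its highest animal was SGM24, which also had the highest summed PVN marker level (208300).

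TRHR, called in F1, gave 233, 241, 288, 290.3 and 334 in Veh and 275, 282, 370.0, 445 and 456 in sGC, so that 2 sGC animals lay within the Veh range (0.38 ± 0.16, limma adjusted p = 0.366). OPRM1 gave 471, 607, 628, 707 and 846 and 672, 757, 763, 774 and 929 (0.27 ± 0.14, limma adjusted p = 0.448), and OPRK1 gave 402, 471, 487, 519 and 567 and 464, 487, 495, 529 and 605 (0.079 ± 0.0981, adjusted p = 0.822). In both opioid receptors the groups overlapped widely.

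The other members called in F1 had negative fold changes in F2 and were not called. CALCRL gave 1625, 1784, 1834, 2008 and 2167 in Veh and 1528, 1599, 1655, 1819 and 1888 in sGC (-0.15 ± 0.0831, limma adjusted p = 0.512), and CCKBR gave 48.8, 63.1, 77.6, 81.7 and 91.4 and 37.6, 51.4, 58.1, 79.5 and 81 (-0.26 ± 0.23, adjusted p = 0.732). AGTR1 gave 64, 83.9, 121, 142 and 419 in Veh and 91.6, 92.3, 128, 136 and 165 in sGC (-0.13 ± 0.42, adjusted p = 0.942). The Veh animal SGM28 held the value of 419, and without it the AGTR1 fold change was 0.28 in place of -0.13. SGM28 also had the highest summed level of neighbouring-region markers in F2 (6131).

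CRHR2, AVPR1A, OXTR and MC4R were not called in F2. CRHR2 gave 688, 885, 894, 1086 and 1140 in Veh and 767, 885, 908, 934 and 1083 in sGC (-0.022 ± 0.13, limma adjusted p = 0.97). AVPR1A gave 106, 122, 122, 143 and 171 and 102, 104, 117, 159 and 180.1 (-0.02 ± 0.18, adjusted p = 0.981), and MC4R gave 77.6, 132, 138, 140.0 and 179 and 133, 139, 150.5, 177 and 186 (0.27 ± 0.20, adjusted p = 0.64). Without Veh animal SGM28 the MC4R fold change was 0.092. OXTR was close to the filter, with 4.24, 9.27, 13.1, 14.3 and 16.8 in Veh and 9.12, 11.8, 17.7, 18.3 and 26.5 in sGC, so its fold change of 0.53 ± 0.38 rests on low values (limma adjusted p = 0.636), and it was 0.24 without Veh animal SGM23.

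**Figure D3:**
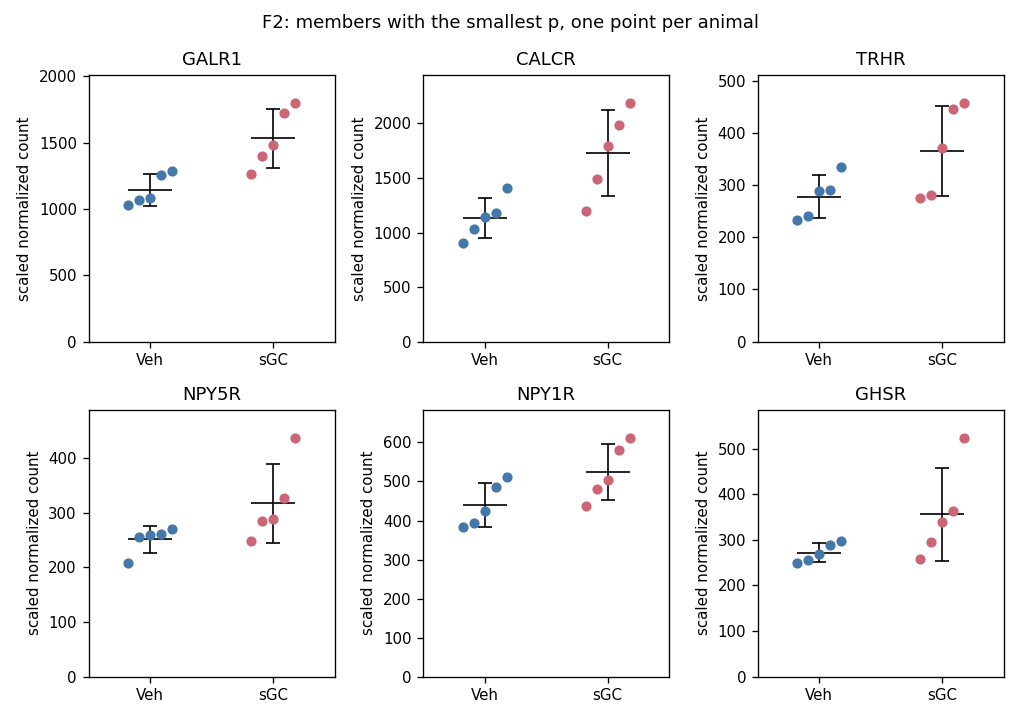
Scaled normalized counts (vertical axes, from 0) of the 6 members with the smallest p in F2, 1 point per animal, with the mean and SD of 5 Veh and 5 sGC animals. All 6 have a higher mean in sGC, and in each panel the groups overlap.

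The remaining F2 members were spread around no change. Positive fold changes above 0.1 were those of HCRTR1 (0.32 ± 0.15), TACR1 (0.22 ± 0.11), NPR2 (0.11 ± 0.0591), NMUR2 (0.56 ± 0.34), LEPR (0.22 ± 0.15), GLP1R (0.15 ± 0.12), GRPR (0.31 ± 0.29), NPY2R (0.14 ± 0.15), NMBR (0.15 ± 0.25) and NPR1 (0.12 ± 0.30). Negative ones below -0.1 were those of SSTR3 (-0.37 ± 0.29), OPRD1 (-0.25 ± 0.21), EDNRB (-0.10 ± 0.0907), VIPR1 (-0.23 ± 0.24), MCHR1 (-0.14 ± 0.15), MC3R, the other melanocortin receptor of the brain (-0.27 ± 0.32), NTSR1 (-0.21 ± 0.26) and EDNRA (-0.21 ± 0.27). BRS3 (0.10 ± 0.16), SSTR1 (0.047 ± 0.13), ADCYAP1R1 (0.027 ± 0.0496), HCRTR2 (0.025 ± 0.0613), TACR3 (0.013 ± 0.25), OPRL1 (-0.032 ± 0.0671) and VIPR2 (-0.048 ± 0.39) lay within 0.1 of no change.

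None of the ligand, partner, G protein or peptidase genes was called in F2, and at an unadjusted p under 0.05 3 ligand genes were higher and 1 lower. The fold changes of the PVN's own peptides were positive: OXT 0.72 ± 0.24 (limma adjusted p = 0.242), CRH 0.62 ± 0.24 (adjusted p = 0.324), AVP 0.47 ± 0.30 (adjusted p = 0.575) and TRH 0.27 ± 0.19 (adjusted p = 0.641). Among the marker lists, 7 of 8 PVN markers were positive, 5 with an unadjusted p under 0.05 (sums of 59540 to 118000 in Veh and 82950 to 208300 in sGC). All 8 oligodendrocyte markers were negative with an unadjusted p under 0.05 (129600 to 242200 and 76490 to 108500), and all 7 endothelial markers were negative, 3 of them at that level (9411 to 13010 and 8458 to 9772). No defining marker of these lists was at 0, and the part of these differences in the receptor values was not tested. Of 9 markers of neighbouring regions tested in F2, 6 were positive and 3 negative, 0 with an unadjusted p under 0.05 by limma. Their sums were 2145 to 6131 in Veh, highest in SGM28 and SGM23, and 2844 to 4802 in sGC, and their part was not tested either.

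In F3, the great-granddaughters, no member was called among 39, and 0.0421% of all genes were (5 genes). At an unadjusted p under 0.05, where 13.2% of all genes lay, 12 members did: 9 lower in sGC (OPRD1, NPY5R, NPR2, HCRTR1, OPRM1, TRHR, BRS3, NPY2R and GRPR), against 6.76% of all genes, and 3 higher (EDNRB, OPRL1 and CALCRL), against 6.41%. The groups did not overlap for OPRD1 and OPRL1, 5.13% of members against 1.26% of all genes. Of the 39 members, 16 were positive and 23 negative, with 49.9% of all genes positive, and the median was -0.0529 against -0.0002. With 1 animal left out, its distance from that of all genes ran from -0.090 (without Veh animal SGM13) to -0.029 (without Veh animal SGM14). All 6 receptors for tachykinins, neurotensin and bombesin-like peptides were negative.

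OPRD1 had the smallest p. Its values ran from 172 to 202 (median 184) in Veh and from 147 to 166 (median 155) in sGC. No sGC animal reached the Veh range, and the means of 186 ± 12.7 in Veh and 156 ± 6.82 in sGC gave -0.25 ± 0.0556 as the log2 fold change (limma unadjusted p = 0.000441, adjusted p = 0.0923, n = 6 and 6). OPRL1 showed the opposite sign without overlap, from 3533 to 3819 (median 3774) in Veh and from 3896 to 4031 (median 3972) in sGC, a small difference of 0.091 ± 0.0229 (limma adjusted p = 0.135).

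The other opioid receptors, both called in F1, were not called. OPRM1 ran from 708 to 816 (median 745) in Veh and from 531 to 724 (median 691) in sGC (-0.18 ± 0.0663, limma adjusted p = 0.259), and its lowest animal was SGM10. OPRK1 ran from 705 to 906 (median 812) and from 695 to 952 (median 870.2) (0.032 ± 0.0808, adjusted p = 0.912), with the sGC range around the whole Veh range.

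EDNRB ran from 4244 to 4846 (median 4502) in Veh and from 4732 to 5525 (median 5114) in sGC (0.18 ± 0.0437, limma adjusted p = 0.126), and its highest animal was SGM21-batch2. NPR2 ran from 867 to 1032 (median 973) in Veh and from 825 to 916 (median 854) in sGC (-0.16 ± 0.0433, adjusted p = 0.158). For each of them the groups overlapped at their edges. CALCRL ran from 2523 to 2826 (median 2630) and from 2579 to 3175 (median 2960) (0.12 ± 0.0479, adjusted p = 0.292), and AGTR1 from 94 to 126 (median 116) and from 93.2 to 156 (median 105) (0.0097 ± 0.12, adjusted p = 0.984).

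Among feeding receptors, NPY5R ran from 267 to 307 (median 300.2) in Veh and from 225 to 272 (median 249) in sGC (-0.22 ± 0.055, limma adjusted p = 0.133). HCRTR1, an orexin receptor, ran from 152 to 174 (median 165) in Veh and from 132 to 153 (median 146) in sGC (-0.17 ± 0.0546, adjusted p = 0.209). In both genes 4 of 6 sGC animals lay below the Veh range and 2 within it. CCKBR ran from 82.3 to 109.7 (median 91.2) and from 66.2 to 104 (median 79.7) (-0.19 ± 0.10, adjusted p = 0.477), and MC4R from 113 to 182 (median 146) and from 125 to 174 (median 156) (0.056 ± 0.10, adjusted p = 0.868).

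**Figure D4:**
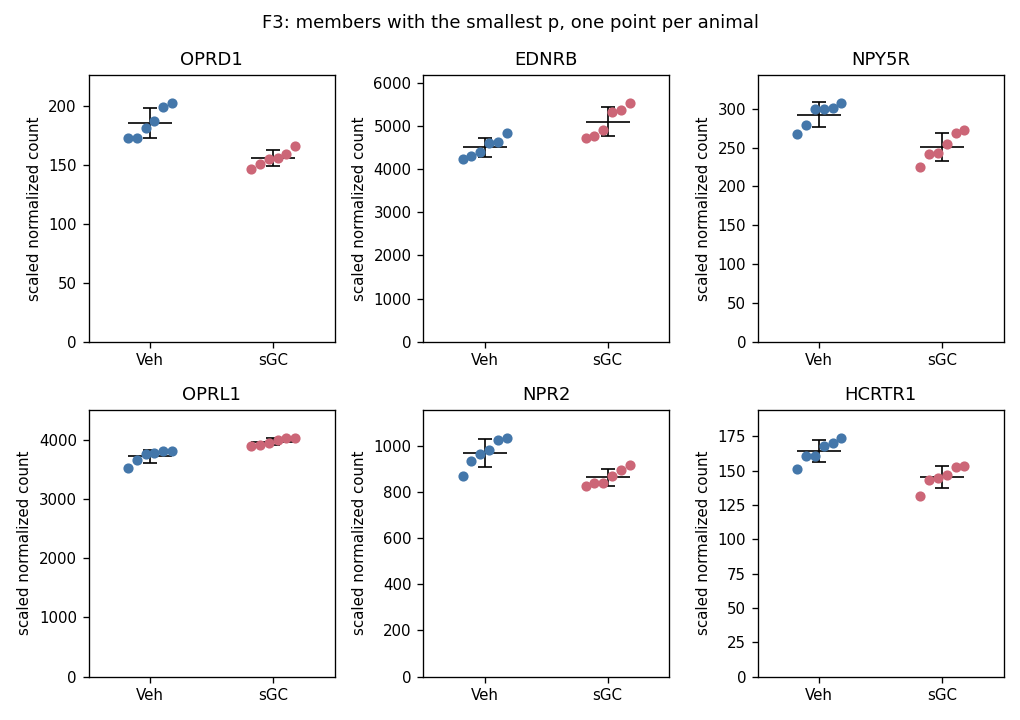
Scaled normalized counts (vertical axes, from 0) of the 6 members with the smallest p in F3, 1 point per animal, with the mean and SD of 6 Veh and 6 sGC animals. OPRD1 and OPRL1 have no overlap between the groups, in opposite directions, and the differences are small against the level.

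TRHR ran from 641 to 1154 (median 812) in Veh and from 361 to 836 (median 575) in sGC, which gave -0.50 ± 0.18 as the log2 fold change (limma adjusted p = 0.265). The lowest animal was SGM21-batch2, at 361. In the first sequencing batch alone, with 4 sGC animals, the TRHR fold change was -0.33, that of OPRD1 -0.24, EDNRB 0.18, NPY5R -0.24, OPRL1 0.089, NPR2 -0.18, HCRTR1 -0.20 and OPRM1 -0.23, and 0 members were called. CRHR2 ran from 933 to 1108 (median 983) and from 939.5 to 1045 (median 967) (-0.037 ± 0.0399, limma adjusted p = 0.738), OXTR from 66.3 to 108 (median 83.4) and from 34.1 to 131 (median 71.7) (-0.28 ± 0.24, adjusted p = 0.664), and AVPR1A from 182 to 233 (median 194) and from 189 to 238 (median 212) (0.074 ± 0.0729, adjusted p = 0.717). The OXTR value was -0.090 without SGM21-batch2.

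Of the remaining F3 members, BRS3 (-0.21 ± 0.0778), NPY2R (-0.28 ± 0.11) and GRPR (-0.58 ± 0.23) had an unadjusted p under 0.05. GRPR was low, from 13 to 28.1 (median 22.6) in Veh and from 10.1 to 28.1 (median 13) in sGC. SSTR1 (-0.11 ± 0.0586), CALCR (-0.18 ± 0.11), GLP1R (-0.21 ± 0.17), NTSR1 (-0.13 ± 0.13), NMBR (-0.13 ± 0.14), TACR3 (-0.16 ± 0.26), HCRTR2 (-0.076 ± 0.066), NPY1R (-0.059 ± 0.0597), GHSR (-0.053 ± 0.16), TACR1 (-0.037 ± 0.15) and MCHR1 (-0.033 ± 0.0855) were negative and not called. VIPR2 (0.23 ± 0.15), SSTR3 (0.20 ± 0.19), NPR1 (0.16 ± 0.12), LEPR (0.14 ± 0.13), NMUR2 (0.081 ± 0.22), ADCYAP1R1 (0.075 ± 0.0387), EDNRA (0.032 ± 0.0861), MC3R (0.025 ± 0.23) and GALR1 (0.02 ± 0.12) were positive and not called.

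The ligand and signalling lists held 0 called genes in F3, and the fold changes of TRH (-0.20 ± 0.29), CRH (-0.056 ± 0.23), OXT (0.055 ± 0.32) and AVP (0.042 ± 0.28) lay within 1 SE of no change. At an unadjusted p under 0.05, 3 of 26 ligand genes were higher and 3 lower (limma). PVN markers were positive for 3 and negative for 5 of 8 (sums of 20010 to 56640 in Veh and 26490 to 40550 in sGC), and endothelial markers were positive for 4 and negative for 3 of 7.

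EDNRB and CALCRL are grouped here as vascular receptors by their ligands alone. Of 8 astrocyte markers in F3, 5 were positive and 3 negative, and 1, S100B, had an unadjusted p under 0.05 (limma, lower in sGC). Markers of mural cells, the smooth muscle cells and pericytes of vessel walls, were positive for 4 and negative for 1 of 5 in F3. Their sums were 5181 to 5533 in Veh and 5331 to 5954 in sGC. The smooth muscle genes ACTA2 (121 ± 22.6 in Veh and 182 ± 21.2 in sGC, 0.59 ± 0.12, limma unadjusted p = 0.000199, adjusted p = 0.081), whose groups did not overlap, and MYH11 (0.87 ± 0.22, unadjusted p = 0.0015, adjusted p = 0.135) had the smallest p of the list. In the first batch alone their fold changes were 0.64 and 0.91. Of 10 markers of neighbouring regions, 6 were positive and 4 negative (sums of 3552 to 4303 and 3392 to 4435), and 3 had an unadjusted p under 0.05: SIX3 (0.22 ± 0.0707), NKX2-1 (-0.93 ± 0.34, -0.53 in the first batch alone) and ISL1 (-0.20 ± 0.0896). None was called by limma, and their part in the receptor values was not tested.

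The spread between animals within a group differed by generation, but the generations were processed separately. F3 alone was corrected for batch and had 2 directions without variation, so processing and the animals cannot be told apart as its source. For F1 the median coefficient of variation over the members was 17.5% in Veh and 18.2% in sGC, for F2 it was 18.4% and 18.9%, and for F3 11.2% and 12.2%. In Veh the widest spread was that of TACR3 (62.8%) among F1 animals, AGTR1 (87.2%) among F2 and NMUR2 (34%) among F3. In F1 Veh, 11 members, OXTR, AVPR1A, TRHR, MC4R, NPY2R, NPY5R, BRS3, GLP1R, OPRK1, SSTR1 and TACR3, were lowest in SGM15 and highest in SGM7.

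The generations were then compared by the difference of their fold changes, tested for every gene by an exact permutation test of the treatment labels within each generation (two-sided, Benjamini-Hochberg over all genes). The null of this test is no effect in either generation, which is narrower than equal effects in both. The generations share no control animals. Between F1 and F3, 4 of 38 members passed, against 14.1% of all genes, and 10 had an unadjusted p under 0.05, against 31.0%. Both shares of the members were under those of all genes. Between F1 and F2, 0 of 38 passed, against 0.569% of all genes, and 9 had an unadjusted p under 0.05, against 19.7%. Between F2 and F3, 0 of 39 passed, against 0.120% of all genes, and 11 had an unadjusted p under 0.05, against 14.2%.

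The members that passed between F1 and F3 were OPRM1, TRHR, NPR2 and CCKBR, each with a positive fold change in F1 and a negative one in F3. OPRM1 went from 0.34 in F1 through 0.27 in F2 to -0.18 in F3, an F1 minus F3 difference of 0.53 (exact permutation test, adjusted p = 0.0121). TRHR went from 0.77 through 0.38 to -0.50, a difference of 1.27 (exact permutation test, adjusted p = 0.0137). NPR2 went from 0.21 through 0.11 to -0.16, a difference of 0.37 (exact permutation test, adjusted p = 0.0192). CCKBR went from 0.85 through -0.26 to -0.19, a difference of 1.04 (exact permutation test, adjusted p = 0.0341).

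**Figure D5:**
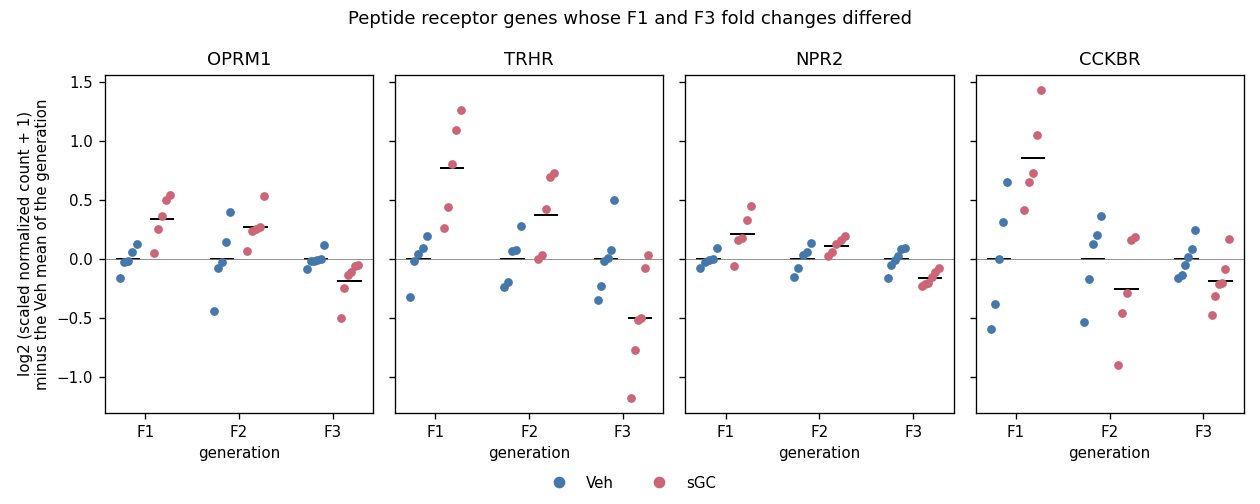
Log2 (scaled normalized count + 1) of each animal minus the mean of the Veh animals of its generation (vertical axis) for OPRM1, TRHR, NPR2 and CCKBR, with horizontal bars at the group means. The sGC means of all 4 members lie above Veh in F1 and below Veh in F3.

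With any 1 animal left out, or in the first F3 batch alone, OPRM1, TRHR and NPR2 kept their F1 minus F3 call, with adjusted p from 0.00607 to 0.0289, from 0.00831 to 0.0382 and from 0.00701 to 0.0401 (exact permutation tests). CCKBR lost it in 9 of these 23 settings, among them without SGM11 (0.0582) and in the first batch alone (0.075). On the deposited scale none of the 4 members passed.

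The differences that missed the adjusted threshold most narrowly between the other pairs were those of the Y receptors. NPY1R differed by -0.62 between F1 and F2 (exact permutation test, adjusted p = 0.0928), and NPY5R by 0.54 between F2 and F3 (exact permutation test, adjusted p = 0.0771). A joint limma fit of both tables, added after the values were seen, called NPY1R (adjusted p = 0.042) and CALCRL (0.0448) between F1 and F2, added AGTR1 (0.0272) and OPRL1 (0.0372) between F1 and F3, and called 0 members between F2 and F3. The sign of the fold change was shared by 17 of 38 members in F1 and F2 (44.7%, against 53.1% of all genes), by 17 of 38 in F1 and F3 (44.7%, against 41.4%) and by 12 of 39 in F2 and F3 (30.8%, against 45.9%).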

How the data were processed

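The authors aligned single-end reads of PVN mRNA libraries to cavPor3, counted them per gene with GenomicAlignments, applied ComBat to the 2 sequencing batches of F3, and took out unwanted variation with the residual method of RUVSeq. TopHat2 and edgeR are named in the submitters' processing notes. What they deposited, whole numbers left after rounding the corrected counts, was treated as a score and not as reads. The authors' own fold changes, likelihood ratios and p-values in the same tables were not used. From the values, 1 direction without variation was found in F1, 1 in F2 and 2 in F3.

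Members and lists were chosen with earlier results of these data known. A trended limma fit (version 3.58.1, R 4.3.3) was run separately per generation on log2(value / median-of-ratios size factor + 1). Genes under a mean of 10 were dropped, p was adjusted by Benjamini-Hochberg over every gene left, and the threshold was 0.05. Values were scaled because their sums differed between animals. Values of every animal (in F3, with 6 animals a group, the lowest, highest and median) are given for called members, the 6 with the smallest p per generation, members without overlap, and CRHR2, AVPR1A, OXTR and MC4R. Marker genes are named where called in F1, and in F3 where the p was smallest. Genes of the ligand and signalling lists are named from the 6 smallest p among called genes, with CRH, AVP, OXT and TRH always. In F1 the called receptor partners and the RAMP genes are named too. Differences between generations used all permutations of the labels within both generations. That test assumes no effect in either generation under its null. The scripts were tested on simulated data. Alternatives were the deposited scale, scaling to the sum, quantile normalization, a pseudocount of 5, a minimum of 50 or none, the removed directions as covariates, the F3 batch, and leaving out each animal. The files held 0 per-sample columns that were left unused. The F3 libraries sequenced again were not used here, and gene coordinates and sequences of cavPor3 were not used here. Checks of the list genes without SGM11 or in the first F3 batch alone were added after the values were seen. The study's methods give a sequencing depth, deeper in the second F3 batch than in the rest, but the deposited values are not reads and carry no depth per animal. The number of animals limits the precision.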

Additional observations from a re-analysis of the deposited data

Results flagged for a closer look

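Within groups, 82 sets of values of 1 member in 1 group were examined for an animal far from the rest, and 3 stood apart by the gap to the nearest animal as a share of the range, where about 4.1 are found by chance (1 in 20). AVPR1A was 85.7 in F1 Veh animal SGM15, with the other Veh animals at 146 to 174. NPY5R was 209 in F2 Veh animal SGM23, with the others at 256 to 271. CRHR2 was 1045 in F3 sGC animal SGM10, with the others at 939.5 to 972.

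The F1 minus F3 difference of the log2 fold changes passed the exact permutation test for OPRM1 (0.53), TRHR (1.27), NPR2 (0.37) and CCKBR (1.04). Each of these members had a positive fold change in F1 and a negative one in F3. They were 4 of 38 members, a smaller share than the 14.1% of all genes that passed. On the deposited scale none of the 4 passed, and CCKBR also lost its call in some settings with 1 animal left out.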

How the results depend on the processing

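Of 759 alternative values for the named members, 705 kept direction and side of the threshold, 37 kept the direction and lost the call, 0 gained one and 17 changed sign. Only the members called in F1 had a call to lose, so all 37 losses were theirs. In F1, 6 members and 2058 genes were called. The deposited scale gave 1 member and 78 genes, and the removed directions as covariates gave 3 members and 1345 genes. Leaving out 1 animal gave 1 to 5 members, with 1 left without Veh animal SGM7 or SGM11 and 3 left without Veh animal SGM15 or sGC animal SGM20, and gave 904 (without SGM11) to 2021 genes. In F2, quantile normalization called 42 genes and leaving out 1 animal 0 to 2, with 0 members throughout. In F3, against 5 genes, the removed directions as covariates gave 1, the first batch alone 0 and batch as a covariate 3, and leaving out 1 animal gave 1 to 17 (without sGC animal SGM18), again with 0 members. Between generations, the joint limma fit called 2 members for F1 against F2, and the deposited scale 0 for F1 against F3. Leaving out 1 animal gave 3 to 5 for F1 against F3 and 0 to 1 for F2 against F3, the 1 without F2 sGC animal SGM25. Leaving out 1 animal turned the sign of members near no change: AGTR1 in F2 (-0.39 to 0.28) and F3 (-0.087 to 0.061), AVPR1A in F2 (-0.14 to 0.075), CRHR2 in F2 (-0.13 to 0.055), MC4R in F1 (-0.32 to 0.0088) and F3 (-0.017 to 0.12) and OPRK1 in F3 (-0.0089 to 0.084). The causes of these changes were not tested. No paired analysis was possible because the sample labels give no litter or line of descent that links animals of different groups. The values are not reads, so no depth per animal could be set beside them, and low members such as OXTR in F2 and GRPR rest on few counts.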
